A study of Mus musculus with 4 samples.

Results

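The genes described here encode the protein side of the spliceosomal small nuclear ribonucleoproteins (snRNPs): the Sm and Lsm rings, the proteins particular to U1, U2, U5 and the tri-snRNP, and the SMN complex that loads Sm rings onto small nuclear RNAs (snRNAs). They were chosen by name, with earlier results of these data known. The list held 41 genes, of which 40 had a row among the 20065 genes of the table and 39 passed the filter on low values, against 16212 genes over the whole table. The level of Snrpn, which encodes the SmN protein that can stand in for SmB, was not analysed here. Gemin4 was measured but fell under the filter.

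RNA-seq was made from cultured muscle stem cells (MuSC, satellite cells) of the limb and trunk muscles of adult C57BL/6 mice, with 2 libraries per genotype. Control cells were Pax7CreERT2/Prmt5+/loxP (+TAM) and Prmt5sKO cells were Pax7CreERT2/Prmt5loxP/loxP (+TAM), so that both groups carried the tamoxifen-inducible Cre driven from Pax7, at least 1 floxed Prmt5 allele and the tamoxifen treatment. For the RNA-seq the paper describes this treatment as hydroxytamoxifen, which it added to cells in culture. The control is thus not free of recombination, since its floxed copy can be lost as well, and the deletion acts only in cells that have expressed Pax7. The labels do not say whether the libraries of a group came from separate mice, so that p-values measure only the spread between these libraries.

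The table gives the mean of each group, and whole reads per library were recovered from those means. Libraries held between 13240754 and 20047430 reads and are named here by group and depth, as the deeper or the shallower of each pair. Values are normalised read counts (scaled by TMM, the trimmed mean of M-values). Prmt5 itself measured 2273 and 2906 in the deeper and the shallower control library against 244 and 202 in the Prmt5sKO libraries, a log2 fold change of -3.52 ± 0.27 (SE).

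An snRNP is built around an snRNA, on which 7 Sm proteins close into a ring. The ring is not formed freely in cells: Prmt5, with its partners, places symmetric dimethyl marks on arginines of SmB, SmD1, SmD3 and Lsm4, the SMN protein binds these marked tails, and the SMN complex then loads the proteins onto the RNA. The related Lsm proteins form a nuclear ring on U6 snRNA and a cytoplasmic ring that binds messenger RNAs before their caps are removed. RNA-seq does not see the methylation of these proteins, and the values given here are those of their messenger RNAs.

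Most of these messenger RNAs were slightly lower in Prmt5sKO MuSC, and none passed the test. Of the 39 genes tested, 30 had a negative log2 fold change, with a median of -0.29 against 0.02 over all genes tested. Both Prmt5sKO libraries lay below both control libraries for 22 genes, both lay above for 3 genes, and the libraries of the groups overlapped for 14 genes. Over all genes tested, 23.6% lay below and 25.2% lay above in this way. The median was -0.18 in the deeper Prmt5sKO library alone and -0.33 in the shallower one alone, each set against the control mean, and 26 and 31 of the 39 genes were lower there. In bulk cultures fewer cells of a type and less RNA per cell cannot be told apart.

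With 2 libraries per group, no difference of a single gene passed the adjusted test. Limma-voom, adjusted over all genes tested, called 0 of the 39 genes, and 0.0% of all genes tested, where a call required a 2-fold difference and an adjusted p no larger than 0.05. Its smallest adjusted p was 0.256 among these genes and 0.193 over the whole table, at Prmt5. The authors, with a different test, report genes up- and downregulated in these cells. Limma-voom did not call even Prmt5, the deleted gene, so a missing call does not show that a gene was unchanged. An unadjusted p under 0.05 was reached by 7 of the genes with a lower level (Lsm2, Snrpa1, Gemin6, Gemin5, Prpf4, Snrnp40 and Prpf31) and by 0 with a higher level, against 6.95% lower and 6.01% higher over all genes tested. The 7 became 3 with scaling by library size only and 8 with upper-quartile scaling or the authors' size factors. They became 4 with the deeper libraries paired as a block and 8 with deeper paired with shallower. The number with a higher level stayed 0 in these settings. Both numbers also changed with 1 library left out. An exact permutation test of 2 against 2 libraries cannot give a p below 0.333, so no such test was made for single genes.

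The counts of genes apart were taken again with another scaling and with 1 library left out. With scaling by library size only, 17 genes lay below (18.2% of all genes) and 4 above (29.98% of all genes), and the median was -0.18, while the median of all genes moved from 0.02 to 0.13; relative to all genes the median of the snRNP genes was then -0.31, as it was under TMM. With 1 library left out, 3 libraries rather than 4 have to be ordered, so that more genes lie apart by construction. Without the shallower Prmt5sKO library the median was -0.17, with 23 genes below and 8 above, against 36.6% and 38.4% of all genes. Without the deeper one 29 lay below and 4 above (38.4% and 39.6% of all genes). The counts were 24 and 7 without the deeper control library (36.1% and 39.2% of all genes) and 29 and 5 without the shallower one (33.9% and 35.4% of all genes).

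**Figure D1:**
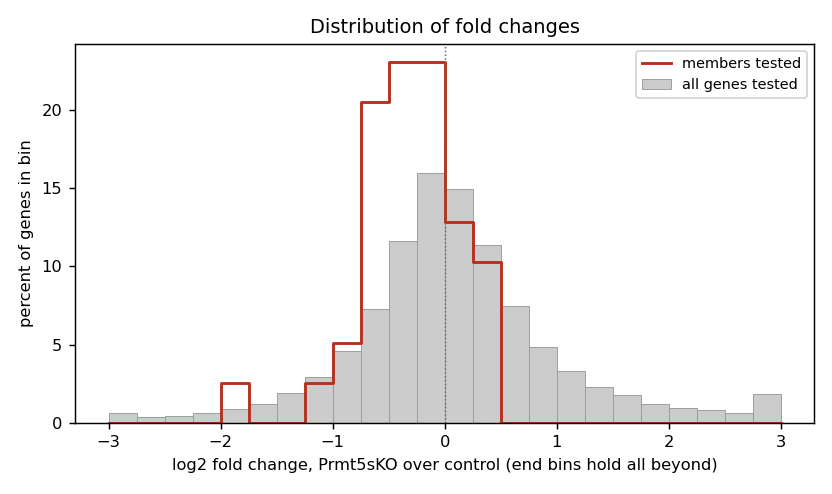
Distribution of log2 fold changes of Prmt5sKO over control (horizontal axis) as the percent of genes in each bin (vertical axis), for all 16212 genes tested (grey bars) and for the 39 snRNP, Lsm and SMN complex genes tested (red line). The red line lies to the left of the grey bars, with a median of -0.29 against 0.02, and ends below 0.50 on the right.

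**Figure D2:**
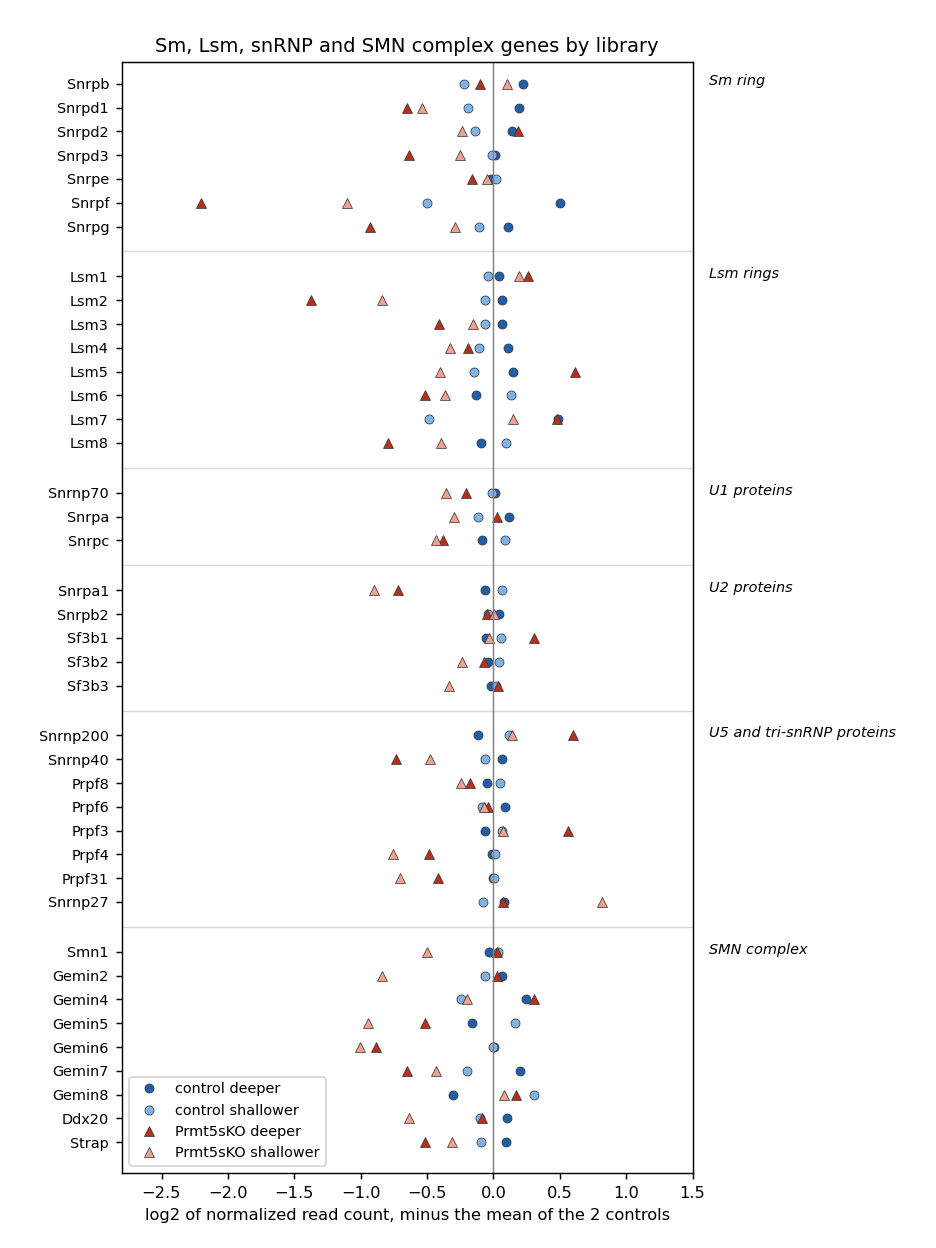
Normalised read count of each of the 40 genes in each library on a log2 scale, relative to the mean of the 2 controls (circles, control; triangles, Prmt5sKO; darker, deeper library). Both triangles lie left of both circles for 22 of the 39 genes tested; Gemin4, drawn with the rest, rests on 3 to 8 reads per library.

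The 4 genes printed next are those whose start regions frame the range of the results: Lsm2, Gemin6 and Snrpa1, which had the lowest fold changes after Snrpf, and Snrnp200, which had the highest level per kb of exon among the 3 genes above both controls. Each is the RefSeq promoter window (GRCm38.p6, 250 bases before to 50 after the start, plus strand, 5′ to 3′), at chr17:34981604-34981903 for Lsm2, chr17:80224201-80224500 for Gemin6, chr7:66060086-66060385 for Snrpa1 and chr2:127208136-127208435 for Snrnp200. Capitals mark the motif letters that were searched on both strands.
Lsm2: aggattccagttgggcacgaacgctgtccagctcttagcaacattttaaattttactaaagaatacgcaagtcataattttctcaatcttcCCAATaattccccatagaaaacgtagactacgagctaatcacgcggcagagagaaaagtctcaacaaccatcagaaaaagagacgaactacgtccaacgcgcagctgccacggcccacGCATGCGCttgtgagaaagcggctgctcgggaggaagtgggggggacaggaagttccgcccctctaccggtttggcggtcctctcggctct
Gemin6: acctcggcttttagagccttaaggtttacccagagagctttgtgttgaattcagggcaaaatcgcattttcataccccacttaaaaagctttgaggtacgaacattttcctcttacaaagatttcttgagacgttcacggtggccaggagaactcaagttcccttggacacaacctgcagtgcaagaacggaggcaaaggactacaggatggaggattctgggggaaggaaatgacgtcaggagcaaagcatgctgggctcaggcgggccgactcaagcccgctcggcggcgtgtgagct
Snrpa1: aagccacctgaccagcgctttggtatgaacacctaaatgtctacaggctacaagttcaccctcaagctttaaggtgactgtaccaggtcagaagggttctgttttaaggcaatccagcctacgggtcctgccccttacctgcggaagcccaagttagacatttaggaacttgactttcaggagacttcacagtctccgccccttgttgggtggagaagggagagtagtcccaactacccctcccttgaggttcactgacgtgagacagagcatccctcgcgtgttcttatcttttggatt
Snrnp200: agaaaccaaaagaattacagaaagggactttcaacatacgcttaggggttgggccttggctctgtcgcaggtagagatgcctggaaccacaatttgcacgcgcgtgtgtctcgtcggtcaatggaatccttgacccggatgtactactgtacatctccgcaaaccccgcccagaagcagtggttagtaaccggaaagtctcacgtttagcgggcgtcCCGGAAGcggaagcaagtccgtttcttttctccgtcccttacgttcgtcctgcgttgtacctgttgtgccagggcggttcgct

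In Lsm2 the capitals are CCAAT, the box bound by NF-Y, and GCATGCGC, the core of the NRF1 motif, which do not overlap each other. In Snrnp200 they are CCGGAAG, an ETS core. In Gemin6 and Snrpa1 none of the searched letters was found, which says only that they are not in these windows. The Snrpa1 window lies inside the gene, whose GENCODE M21 start is at 66059003, and does not cover that start.

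RefSeq windows were matched for 36 of the 41 genes. They include Snrpn, whose level was not analysed and which is counted below for CCAAT and TATAAA. There is no entry for Snrpb, Snrpd1, Snrnp40, Lsm1 and Lsm4. The ETS core CCGGAAG was found at 14 of these 36 genes (38.9%) and at 17.3% of the 12486 measured genes with a window. CCAAT was found at 13 of the genes (36.1%), and at 42.0% of all. GCATGCGC was found at 3 of them (8.33%; 5.33% of all), namely Lsm2, Lsm8 and Snrnp70, and each of these lay below in both Prmt5sKO libraries. The E2F letters TTTCCCGC or TTTGGCGC were found at 1 gene, Snrnp70 (3.09% of all), the TATA box letters TATAAA at 3 (9.47% of all) and the YY1 core AAGATGGC at 1, Lsm7 (4.60% of all). The ETS core stood at 5 of the 19 genes with a window that lay below both controls and at 9 of the 15 other tested genes with a window. A gene with several windows was counted where any of them held the letters. These are letter matches and no test was made of them.

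In the Sm ring, 5 of the 7 genes measured lay below both controls and 0 lay above (23.6% and 25.2% of all genes tested). The median log2 fold change of the ring was -0.45. Snrpd3, which encodes the methylated SmD3 protein, measured 3081 and 3039 in the control libraries against 1966 and 2563 in the Prmt5sKO libraries. The controls nearly coincide and both Prmt5sKO libraries are lower, with a log2 fold change of -0.45 ± 0.22 (SE) and an adjusted p of 0.434 by limma-voom. Snrpd1, encoding SmD1, measured 702 and 536 in the controls against 390 and 421 in Prmt5sKO, a log2 fold change of -0.61 ± 0.25 with an adjusted p of 0.389 by limma-voom. The groups do not overlap, but the nearest libraries of the groups lie closer together than the control libraries do.

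Snrpb, which encodes SmB and had the highest level per kb of the ring, showed overlapping groups. It measured 4057 and 2991 in the controls against 3240 and 3747 in Prmt5sKO. The Prmt5sKO values lie within the control range, the log2 fold change was 0.00 ± 0.24 (95% interval -0.58 to 0.58), and its sign turned under upper-quartile scaling, the authors' size factors and without the filter. Lsm4, the fourth of the genes for known Prmt5 substrates, measured 810 and 694 against 656 and 598, so that both Prmt5sKO libraries were below both controls by a log2 fold change of -0.26 ± 0.22. Of these 4 substrate genes, 3 lay below both controls (23.6% of all genes tested). The median log2 fold change of the 4 genes was -0.35.

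The stretches on which Prmt5 acts hold arginine followed by glycine, and such codon pairs can be counted in the coding sequence. Codons for arginine followed by codons for glycine occurred 10 times in Snrpd1, of which 9 lay in the last 50 codons, 8 times in Snrpb, where 2 lay in the last 50 codons, 8 times in Lsm4, where 6 did, and 7 times in Snrpd3, where 5 did. In the other Sm genes they occurred 1 time, or 2 times in Snrpg. Outside the rings the counts reached 8 in Snrnp70 and 7 in Gemin5. The end of the Snrpd3 coding sequence shows the pattern. It covers codons 93 to 126 without the stop codon, is taken from the GENCODE M21 transcript on the plus strand of chr10:75532327-75535319 (mm10, GRCm38) across an intron, and has the arginine-glycine codon pairs in capitals:
Snrpd3: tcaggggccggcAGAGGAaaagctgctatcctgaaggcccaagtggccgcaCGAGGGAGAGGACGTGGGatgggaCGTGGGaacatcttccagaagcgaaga
Of the 7 pairs in the gene, 5 are in this stretch.

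The other Sm genes encode ring proteins that are not among the known substrates. Snrpg measured 342 and 293 in the controls against 166 and 258 in Prmt5sKO, a log2 fold change of -0.65 ± 0.33 with both Prmt5sKO libraries lower. Snrpe measured 763 and 779 against 690 and 745, below in both libraries by a log2 fold change of -0.11 ± 0.21 that was 0.00081 with scaling by library size only. Snrpd2 measured 826 and 681 against 853 and 636. The Prmt5sKO values of Snrpd2 enclose the controls, and its log2 fold change of -0.02 ± 0.25 was 0.084 with scaling by library size only.

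Snrpf gave the largest difference and had the fewest reads of the 39 genes tested. Its normalised counts were 31.6 and 15.6 in the controls against 4.45 and 10.1 in Prmt5sKO, which are 28 and 12 reads against 6 and 10. The log2 fold change was -1.76 ± 0.91, with a 95% interval of -3.98 to 0.45 and an adjusted p of 0.449 by limma-voom. Reads that fit several genes were left uncounted by the authors, and 89.5% of the 50-base words of the Snrpf transcript also occur in transcripts of other genes, most of them in those of Ccdc38.

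**Figure D3:**
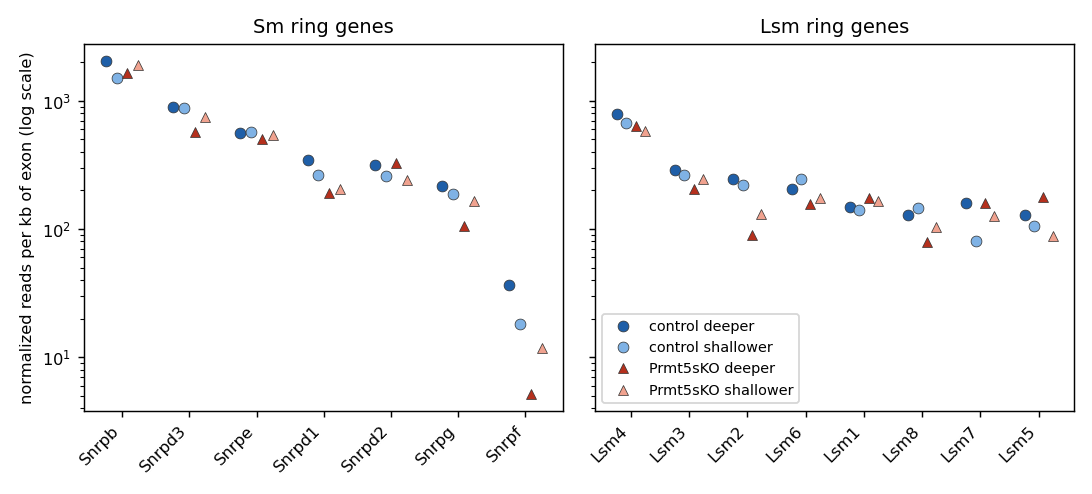
Normalised reads per kb of exon (vertical axis, log scale) of the Sm ring genes (left) and the Lsm ring genes (right) in each library, ordered by the control mean. The Sm genes span from 1783 per kb for Snrpb to 27.4 for Snrpf, while the Lsm genes span from 725 for Lsm4 to 117 for Lsm5.

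Ring proteins are assembled in equal numbers, but the levels of their messenger RNAs were not equal. Per kb of exon, the control means of the Sm genes were 1783 for Snrpb, 889 for Snrpd3, 562 for Snrpe, 302 for Snrpd1, 288 for Snrpd2, 202 for Snrpg and 27.4 for Snrpf, in normalised reads. Neighbours in this order did not overlap between the control libraries, except Snrpd1 and Snrpd2. The highest level was 65.1 times the lowest, and 8.81 times the level of Snrpg, the second lowest. The Lsm genes lay closer together, with 725 per kb for Lsm4, 275 for Lsm3, 232 for Lsm2, 226 for Lsm6, 144 for Lsm1, 138 for Lsm8, 120 for Lsm7 and 117 for Lsm5. The control libraries of Lsm2 and Lsm6 overlapped, as did those of Lsm1 and Lsm8, of Lsm8 and Lsm7 and of Lsm7 and Lsm5. These levels depend on how many reads of a gene could be placed uniquely and on the exon length, joined over all annotated transcripts. That length was 2753 bases for Lsm3 and 1038 for Lsm4, where the chosen transcript of each had 743 and 925. Lsm3 had a control mean of 756 normalised reads against 752 for Lsm4, so transcript length would place Lsm3 above Lsm4. The order and its overlaps, in both rings, hold only for the exon length used.

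**Figure D4:**
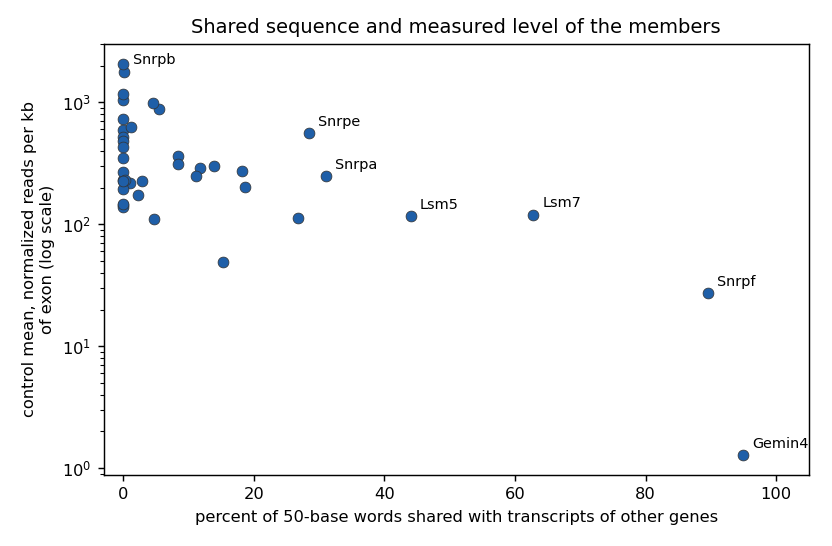
Control level of each of the 40 genes in normalised reads per kb of exon (vertical axis, log scale) against the percent of its 50-base words that also occur in transcripts of other genes (horizontal axis). Snrpf and Gemin4, with 89.5% and 94.9% shared, have the lowest levels.

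Shared sequence was concentrated in a few of the genes. No 50-base word was shared with another gene for 16 of the 39 genes tested, and over 10% of the words, a limit set after the values were seen, were shared for 12. Among the 27 genes with at most 10% shared, 15 lay below both controls and 3 above, and their median log2 fold change was -0.29. Among the 12 others 7 lay below and 0 above, with a median of -0.21. The 16 genes without a shared word had a median of -0.32, with 10 below and 2 above (23.6% and 25.2% of all genes tested). The levels of the genes with much shared sequence, among them Lsm7 (62.8%), Lsm5 (44.0%) and Snrpa (31.1%), are therefore uncertain.

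Among the Lsm genes, 5 of 8 lay below both controls and 1 lay above (23.6% and 25.2% of all genes tested). The median log2 fold change of the Lsm genes was -0.28. Lsm2 (chr17:34981862-34985891, GRCm38), a subunit of both Lsm rings, measured 766 and 699 in the controls against 282 and 409 in Prmt5sKO. Both Prmt5sKO libraries are well below both controls, and the log2 fold change of -1.13 ± 0.27 (95% interval -1.79 to -0.47) had a p of 0.0057 and an adjusted p of 0.256 by limma-voom. Under the 12 alternatives its log2 fold change lay between -1.38 and -0.84, and its adjusted p lay between 0.0702 and 0.968.

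The subunits that distinguish the rings lay on opposite sides of their controls. Lsm8, which belongs to the nuclear ring on U6, measured 541 and 615 in the controls against 333 and 438 in Prmt5sKO, a log2 fold change of -0.61 ± 0.26. Lsm1, which takes its place in the cytoplasmic ring, measured 459 and 432 against 534 and 510, above both controls by a log2 fold change of 0.23 ± 0.23. The adjusted p values by limma-voom were 0.391 for Lsm8 and 0.678 for Lsm1, and the difference between them was not tested. Of the shared subunits, Lsm6 measured 837 and 1006 against 643 and 713, and Lsm3 measured 791 and 721 against 568 and 679, both below both controls. The Prmt5sKO values of Lsm5 (141 and 69.4) lay on either side of its controls (102 and 83.0). Those of Lsm7 (254 and 201) lay between its controls (255 and 130).

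The proteins particular to U1 and U2 gave a mixed picture. U1 snRNP binds the splice site at the start of the intron. Of its 3 genes, 2 lay below both controls (23.6% of all genes tested). The median log2 fold change of the 3 genes was -0.29. Snrnp70, encoding the protein that binds the first stem loop of U1, measured 4568 and 4476 in the controls against 3909 and 3520 in Prmt5sKO, a log2 fold change of -0.29 ± 0.20. Snrpc measured 688 and 773 against 561 and 539, a log2 fold change of -0.40 ± 0.22. Snrpa measured 794 and 678 against 748 and 598, where the groups overlap.

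U2 snRNP binds the branch point, with the Sf3b proteins holding the RNA there. Of its 5 genes, 2 lay below both controls (23.6% of all genes tested). Snrpa1 (chr7:66059003-66074587), which encodes a U2 protein that binds the RNA together with the product of Snrpb2, measured 1107 and 1206 in the controls against 701 and 620 in Prmt5sKO. Both Prmt5sKO libraries are far below both controls, with a log2 fold change of -0.81 ± 0.21 (95% interval -1.32 to -0.29), a p of 0.00853 and an adjusted p of 0.276 by limma-voom. Its partner Snrpb2 measured 645 and 607 against 604 and 629, with overlap and a log2 fold change of -0.03 ± 0.22 that was 0.083 with scaling by library size only. The Sf3b genes had log2 fold changes of 0.13 ± 0.22 (Sf3b1), -0.15 ± 0.20 (Sf3b2) and -0.16 ± 0.22 (Sf3b3). Sf3b2 lay below both controls by a narrow margin, with 6441 in the deeper Prmt5sKO library against 6560 in the nearest control.

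Of the 8 genes of U5 and the tri-snRNP, 4 lay below both controls and 2 above (23.6% and 25.2% of all genes tested). The median log2 fold change of the 8 genes was -0.13. Those below were Prpf4, Prpf31, Snrnp40 and Prpf8. Prpf4 measured 1084 and 1106 in the controls against 783 and 648 in Prmt5sKO, a log2 fold change of -0.61 ± 0.22 (p of 0.0288, adjusted p of 0.336 by limma-voom). Prpf31, whose protein ties U4/U6 to U5, measured 1699 and 1705 against 1274 and 1045, a log2 fold change of -0.56 ± 0.21 (p of 0.0365, adjusted p of 0.354 by limma-voom). Snrnp40, encoding a WD-repeat protein of U5, measured 1124 and 1032 against 646 and 772, a log2 fold change of -0.62 ± 0.22 (p of 0.0293, adjusted p of 0.336 by limma-voom). In each of these the control libraries lie close together and apart from both Prmt5sKO libraries.

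The pair above both controls was Snrnp200 and Prpf3. Snrnp200 (chr2:127208386-127240451), encoding the helicase that unwinds U4 from U6, measured 7516 and 8815 in the controls against 12310 and 8964 in Prmt5sKO. The deeper Prmt5sKO library is far above and the shallower one just above the higher control, and the log2 fold change was 0.36 ± 0.25 with an adjusted p of 0.544 by limma-voom. Prpf3, whose protein sits with that of Prpf4 on U4/U6, measured 944 and 1035 against 1457 and 1038, the same pattern, with a log2 fold change of 0.32 ± 0.25. With upper-quartile scaling neither gene was above both controls, and with the authors' size factors Prpf3 was not. Snrnp27 measured 445 and 398 against 443 and 741, high only in the shallower Prmt5sKO library. Prpf8, encoding the scaffold at the centre of the spliceosome, measured 14964 and 16062 against 13722 and 13067, a log2 fold change of -0.21 ± 0.20. Prpf6 measured 1981 and 1757 against 1812 and 1776, inside the control range, with a log2 fold change of -0.06 ± 0.20 that was 0.049 with scaling by library size only.

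In the SMN complex 4 of the 8 genes tested lay below both controls and 0 lay above (23.6% and 25.2% of all genes tested). The median log2 fold change of the complex was -0.39. Gemin6 (chr17:80224441-80228497), whose protein forms a subcomplex with those of Gemin7 and Gemin8, measured 355 and 351 in the controls against 191 and 176 in Prmt5sKO. The libraries of each group lie close together and the groups are far apart, with a log2 fold change of -0.94 ± 0.27 (95% interval -1.60 to -0.27), a p of 0.0137 and an adjusted p of 0.295 by limma-voom. Gemin5, encoding the protein that recognises the snRNA, measured 2534 and 3173 against 1981 and 1475, a log2 fold change of -0.73 ± 0.24 (p of 0.0243, adjusted p of 0.327 by limma-voom). Gemin7 measured 713 and 541 against 396 and 461, a log2 fold change of -0.55 ± 0.26.

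Strap, which encodes an SMN-associated protein also known as unrip, measured 3857 and 3394 in the controls against 2531 and 2909 in Prmt5sKO, a log2 fold change of -0.41 ± 0.21. Smn1, the gene for the SMN protein, measured 573 and 602 against 598 and 414, so that only the shallower Prmt5sKO library was lower, and the log2 fold change of -0.22 ± 0.27 was 0.027 without it. Gemin2, whose protein holds the partly formed ring, showed the same split with 277 and 253 against 269 and 148. Ddx20, encoding the helicase of the complex, measured 650 and 563 against 569 and 388, and Gemin8 measured 96.1 and 147 against 133 and 126, both with overlap. Gemin4 had 5 and 3 reads in the controls and 8 and 4 in Prmt5sKO, and 94.9% of the 50-base words of its transcript occur in transcripts of other genes, most of them in those of Glod4.

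A wider list of 40 genes for other snRNP proteins, the minor spliceosome and snRNP assembly was measured as well. Of these 40, 21 lay below both controls and 2 above, against 23.6% and 25.2% of all genes tested. By limma-voom, 6 had an unadjusted p under 0.05 with a lower level and 0 with a higher level. Over all genes tested these shares were 6.95% and 6.01%. The median log2 fold change of the wider list was -0.24. None of the wider list was called by limma-voom. The lowest were Ppih, encoding a cyclophilin that sits on the U4/U6 proteins, with 519 and 528 in the controls against 230 and 237 in Prmt5sKO, and Sf3b5 with 678 and 551 against 345 and 385. The highest were Rnpc3, encoding a protein of the minor spliceosome, with 346 and 232 against 399 and 293, and Ncbp2, encoding a subunit of the nuclear cap-binding complex, with 1030 and 951 against 1148 and 1171. The log2 fold changes were -1.17 ± 0.25 for Ppih, -0.76 ± 0.25 for Sf3b5, 0.27 ± 0.33 for Rnpc3 and 0.23 ± 0.20 for Ncbp2.

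Genes that act with the cytoplasmic Lsm ring in removing caps formed a second list, whose difference from the snRNP genes was not tested. Of 10 such genes, 3 lay below both controls and 2 above, against 23.6% and 25.2% of all genes tested. Their median log2 fold change was -0.09. The lowest were Dcp2, the decapping enzyme, at -0.52 ± 0.25, and Edc3 at -0.45 ± 0.22. The highest were Dcp1b at 0.69 ± 0.46 and Edc4 at 0.14 ± 0.19, and none was called by limma-voom.

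**Figure D5:**
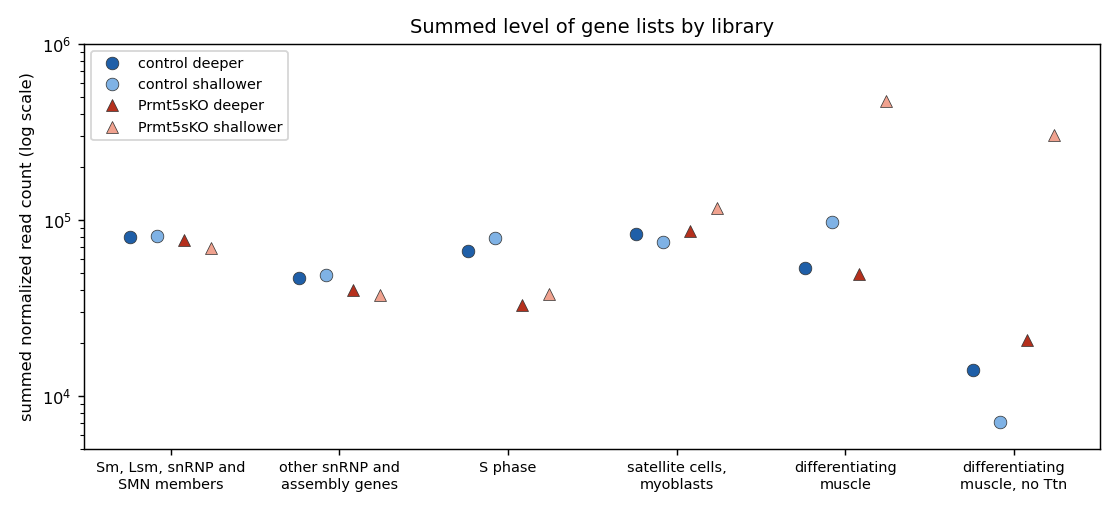
Summed normalised read count (vertical axis, log scale) of the snRNP, Lsm and SMN complex genes, of the wider snRNP and assembly list and of 3 marker lists, 1 of them also without Ttn, in each library. The S phase list is lower in both Prmt5sKO libraries, and the differentiating muscle list is highest in the shallower Prmt5sKO library, at 474448; with Ttn left out, the deeper Prmt5sKO library lies above both controls too.

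Other features of the cultures moved with the genotype or with 1 library. Of 25 markers of S phase, 24 lay below both controls, against 23.6% of all genes tested. By limma-voom, 23 had an unadjusted p under 0.05 with a lower level, against 6.95% of all genes tested, and none was called. The median log2 fold change of these markers was -1.15. Their summed normalised counts were 66326 and 79365 in the controls against 32734 and 37672. Their part in the levels of the snRNP genes was not tested. Markers of differentiating muscle summed to 53089 and 97162 in the controls, 49111 in the deeper Prmt5sKO library and 474448 in the shallower one. Most of the control sums was Ttn, with 39149 and 90033, and without it the sums were 13939 and 7129 in the controls against 20683 and 303436. The list's median was 0.97 in log2 above the control mean in the deeper Prmt5sKO library, where 15 of 16 genes were higher, and 5.22 in the shallower one. All 16 were higher in the shallower than in the deeper Prmt5sKO library. Both Prmt5sKO libraries lay above both controls for 12 of them, against 25.2% of all genes tested. The snRNP, Lsm and SMN complex genes summed to 0.424% of normalised counts in that shallower library, against 0.519% in the deeper Prmt5sKO library and 0.490% and 0.475% in the controls. The part of differentiation in these values was not tested.

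Markers of satellite cells and myoblasts summed to between 75073 and 116891, with 1 of 10 below both controls and 2 above. For this list and those that follow, the shares over all genes tested were 23.6% below and 25.2% above. Fibroblast markers summed to 2285 and 1170 in the controls against 5469 and 7886, almost all of it Gsn, with 2212 and 931 against 5398 and 7460. Of the 7 tested, 4 had a negative log2 fold change, the median was -0.51 and 2 lay above both controls. Endothelial markers summed to 124 and 166 in the controls against 91.9 and 57.3 in Prmt5sKO, with 2 of 3 tested below both controls and 1 above. Blood cell markers summed to 314 and 480 against 632 and 255. Emcn, Tie1, Ptprc, Adgre1 and Tyrobp have no row in the table used here.

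Gene length and expression level were set beside the fold changes. Across the 39 genes tested, Spearman's rho of the log2 fold change was 0.02 with exon length and 0.06 with the control level, while over all genes tested it was 0.05 and -0.19. The control level is also part of the fold change, so a rho between them cannot show a dependence on level. Genes in such a comparison come from the same 4 libraries and are not independent.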

How the data were processed

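RNA-seq of rRNA-depleted RNA (RiboMinus, Ion Torrent Proton) came from 2 control and 2 Prmt5sKO libraries of MuSC in culture. The authors trimmed reads with Reaper, aligned them with STAR 2.4.0a to GRCm38, counted them per gene, leaving out reads that fit several places or genes, and compared groups with DESeq2 1.62. Each signal value in the deposited table is a group mean, made by the authors, of counts divided by size factors. The authors' fold changes and p-values in the table were not used.

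Each group mean is a sum of whole reads in 2 libraries, each at a fixed value per read, and these reads were recovered for 100% of 20065 genes, to a relative error of at most 5.49e-15. The columns carry no replicate numbers. The recovery was checked on simulated libraries with known counts. The test was checked on simulated counts with large changes and the same dispersion for every gene. That check does not show how often the test finds differences at the spread of these libraries. Genes with a mean normalised count of at least 5 were tested with limma-voom (limma 3.58.1, R 4.3.3), TMM scaling from own code and Benjamini-Hochberg adjustment, and 12 alternatives were run. Symbols and exon lengths came from GENCODE M21 (19782 identifiers matched). Words of 50 bases were compared on both strands with all other genes' GENCODE M21 transcripts.

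All genes of the list are named, with the 2 lowest and 2 highest of the other lists. The genes and lists were chosen with earlier results of these data known.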

Additional observations from a re-analysis of the deposited data

How the results depend on the processing

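None of the snRNP, Lsm and SMN complex genes was called in any of the 12 alternatives. The number of genes called over the whole table was 0 with other scalings, filters and limma-trend, and between 0 and 489 when 1 library was left out (489 without the deeper and 55 without the shallower Prmt5sKO library). With a replicate block that paired the deeper libraries it was 0, and 25 of the snRNP genes lay below and 3 above their paired controls. With the block that paired deeper with shallower libraries the number called was 346, and 24 snRNP genes lay below and 5 above. Lying apart from a paired control asks less than lying apart from both controls, and the shares of all genes were not taken for these pairings. The columns carry no replicate numbers, so these pairings are by depth only; deviations of libraries paired by like depth correlated at -0.361 over 10305 genes. The median log2 fold change of the snRNP genes was -0.18 with scaling by library size only and between -0.33 and -0.17 with 1 library left out, and the numbers below and above both controls were then between 23 and 29 and between 4 and 8, with 3 libraries to order rather than 4. The sign turned 22 times, in 13 genes. Snrpb was -0.015 with upper-quartile scaling, -0.0063 with the authors' size factors and -0.0018 without the filter. With library size only, Snrpd2 was 0.084, Snrpe 0.00081, Snrpb2 0.083 and Prpf6 0.049. The causes were not tested. With 1 library left out, log2 fold changes lay between -0.21 and 0.21 for Snrpb, -0.24 and 0.18 for Snrpd2, -0.41 and 0.60 for Lsm5, -0.15 and 0.80 for Lsm7, -0.30 and 0.022 for Snrpa, -0.060 and 0.0070 for Snrpb2, -0.037 and 0.30 for Sf3b1, -0.34 and 0.031 for Sf3b3, -0.14 and 0.016 for Prpf6, -0.50 and 0.027 for Smn1, -0.84 and 0.019 for Gemin2, and -0.19 and 0.44 for Gemin8. Where a group was left with 1 library, that library was taken to vary like those of the other group. Limits of depth concern Snrpf and Gemin4, with at most 28 reads per library.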
